A study of Mus musculus with 10 samples.

Results

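Cytosolic HSP90 and 8 proteins that assist it are described here by the RNA of their genes in mouse round spermatids, the germ cells that meiosis leaves with 1 set of chromosomes, after a short heating of the testis. The 10 genes were chosen by symbol, as the cytosolic HSP90 genes and HSP90 cofactors among the 55401 genes of the count table, and the rule uses no measured value. They are Hsp90aa1, Hsp90ab1, Stip1, Fkbp4, Fkbp5, Ahsa1, Ptges3, Cdc37, Chordc1 and Cacybp. All 10 passed the filter on low counts, which kept 24948 genes, and the lowest count of any of them in any library was 369 reads (Chordc1, 42 °C replicate 4).

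The heated mice were 5 adult CD1 males, an outbred stock, whose testes lay in water at 42 °C for 30 minutes, and the controls were 5 adult CD1 males treated alike with water at 33 °C. Both groups were under isoflurane throughout, woke up and were killed directly afterwards, and their round spermatids were then isolated, so the controls carry the anaesthesia and the isolation too. Each mouse gave 1 library of ribosomal-depleted total RNA, read as 150-base read pairs on an Illumina instrument. The comparison asks what a brief rise of testis temperature does to the RNA of these cells, and here what it does to the HSP90 machinery.

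HSP90 is an abundant chaperone dimer that binds proteins late in their folding, among them steroid receptors and many kinases, and it is driven by a cycle of ATP binding and hydrolysis. Co-chaperones steer that cycle. Some deliver clients from HSP70 or load kinases, some speed or slow the ATPase, and some stabilise the closed dimer. In mice, Hsp90aa1 is needed for male germ cells to complete meiosis, and in many cell types heat induces HSP90 genes through heat shock factors.

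Total counts ran from 60623568 to 102086073 at 42 °C and from 92311183 to 117723075 at 33 °C. Library 42 °C replicate 2 stood apart, with the lowest total and with 16.2% of its counts on transposable elements (TE), against 4.62% to 9.07% in the other 9 libraries, so results for the 10 genes are also given without it. Levels are CPM, counts scaled to a common library size with TMM factors, and fold changes are 42 °C over 33 °C from the quasi-likelihood test of edgeR, with p-values adjusted over all 26025 features tested. Transcripts on a list of 15 round spermatid markers summed to 2042 to 2891 CPM at 42 °C, against 1794 to 2753 CPM at 33 °C. A list of 12 elongating spermatid markers, several of which round spermatids already transcribe, summed to 3273 to 8013 CPM at 42 °C, against 2692 to 5528 CPM at 33 °C, and 16 spermatocyte markers to 1080.1 to 1502 CPM at 42 °C, against 1355 to 1741 CPM at 33 °C. The Sertoli cell list reached 27.1 CPM at 42 °C, against 24.8 CPM at 33 °C, the Leydig cell list 7.82 CPM at 42 °C, against 19.8 CPM at 33 °C, and the macrophage list 9.61 CPM at 42 °C, against 11.5 CPM at 33 °C. In bulk RNA, fewer cells of a type and less RNA per cell cannot be told apart.

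None of the 10 genes passed an adjusted p of 0.05 in the edgeR test, where 0.0922% of all features did (24 of 26025, with 0.0884% higher and 0.00384% lower), and none passed by DESeq2 or by limma voom with sample quality weights, where 1.11% and 0.588% of features did. Without 42 °C replicate 2 the count was also 0. At an unadjusted p under 0.05 there was 1 of the 10, Fkbp5, against 11.5% of all features. Of the 10 log2 fold changes 9 were under 0 (8 when libraries were scaled by their totals), with a median of -0.15, against a median of -0.01 over all features, of which 51.1% were under 0. Among the 11261 features with a mean of 5 CPM or more, the range in which all 10 genes lie, the median was -0.09 and 61.9% were under 0. Without 42 °C replicate 2 the median of the 10 genes was -0.08 in edgeR, with 8 under 0. With limma voom and without that library it was -0.011, with 6 under 0, against -0.007 over all features. Of the elongating spermatid markers, whose sums and those of the other lists are given above, 12 of 12 were over 0 (median 0.36, 3 higher at an unadjusted p under 0.05). Of the round spermatid markers 12 of 15 were over 0 (median 0.29, 2 higher at that p), and of the spermatocyte markers 12 of 16 were under 0 (median -0.18, 2 lower at that p). No marker on these 3 lists passed the threshold or was at 0 counts, and their part in the values of the 10 genes was not tested. In none of the 10 did the groups separate, while 2.0% of all features had groups that did not overlap.

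**Figure D1:**
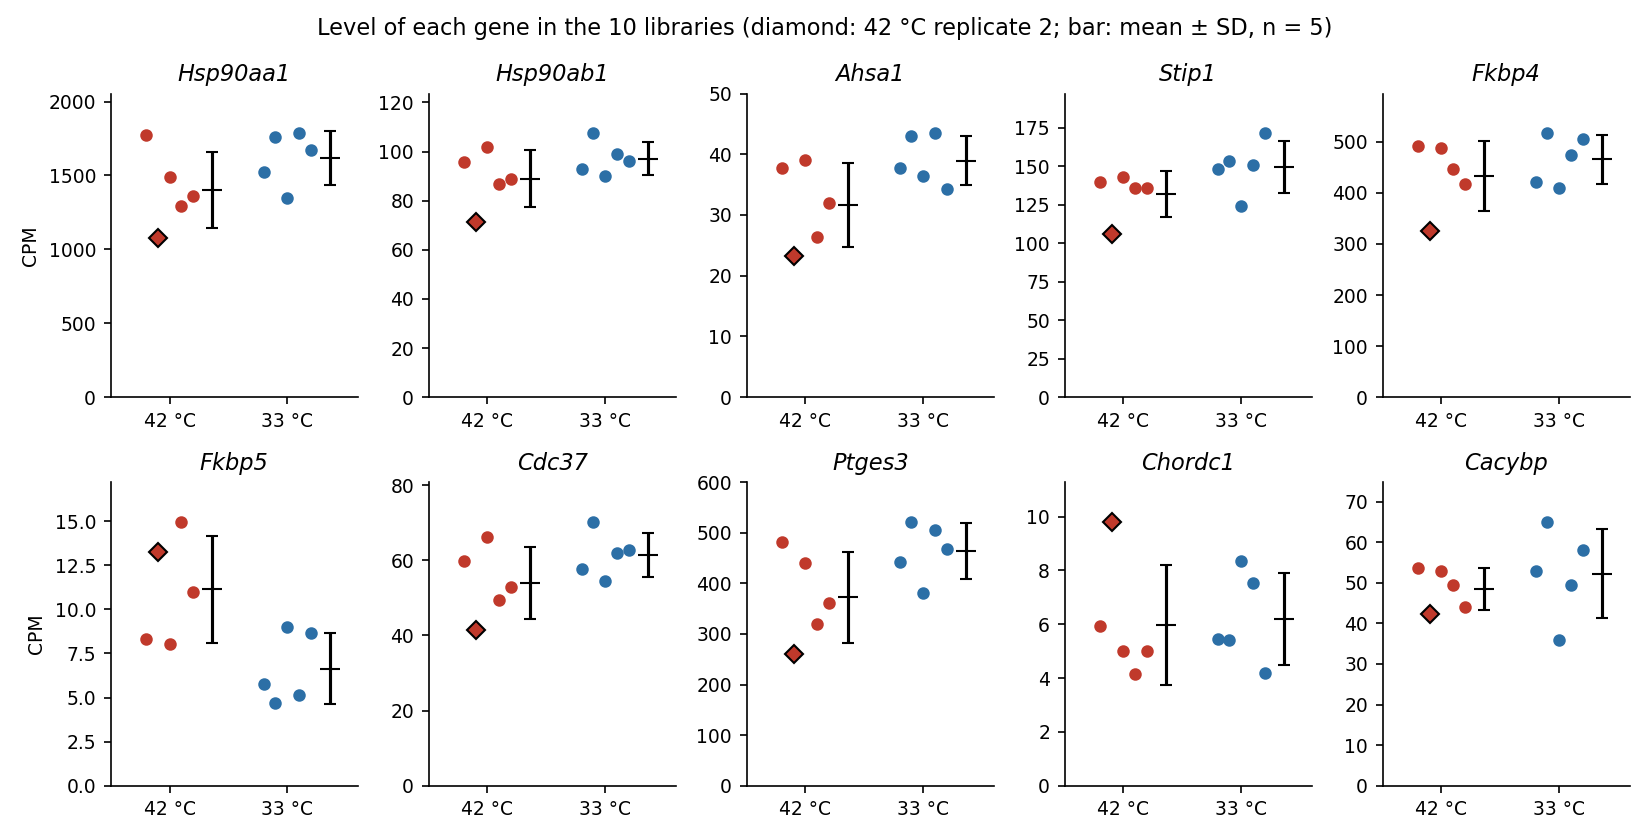
CPM of each of the 10 genes in the 5 libraries at 42 °C (red) and the 5 at 33 °C (blue), with mean ± SD beside each group and 42 °C replicate 2 drawn as a diamond. The groups overlap in every panel, and the diamond is the lowest red point in 8 panels and the highest in the Chordc1 panel.

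The cytosolic chaperone itself is made from 2 genes. Hsp90aa1 encodes HSP90 alpha, the heat-inducible form in many cell types, and Hsp90ab1 encodes HSP90 beta, the constitutive form. Both proteins end in a short acidic peptide that is gripped by the tetratricopeptide repeat (TPR) domains of co-chaperones such as those encoded by Stip1, Fkbp4 and Fkbp5. The last 15 codons of each coding sequence before the stop codon are shown because they encode that end, on the minus strand of GRCm38, with the last 5 codons in capitals.
Hsp90aa1, chr12:110691543-110691587: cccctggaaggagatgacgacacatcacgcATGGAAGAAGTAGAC
Hsp90ab1, chr17:45568018-45568062: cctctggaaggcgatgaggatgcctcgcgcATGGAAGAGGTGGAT
The full coding sequences, of 2199 and 2172 bases, were 76.6% identical over their alignment, and their longest identical run was 33 bases, well under the length of a read.

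Hsp90aa1 (ENSMUSG00000021270, chr12:110690605-110702728, minus strand) was among the most abundant messages of these cells. It stood at 1773, 1077, 1489.8, 1295 and 1361 CPM in replicates 1 to 5 at 42 °C, and at 1520.5, 1759, 1345, 1786 and 1669.9 CPM in replicates 1 to 5 at 33 °C. Heated replicates 2 and 4 were below all controls, and heated replicate 1 was nearly as high as the highest control, so the groups overlapped. The means were 1399 ± 257 CPM at 42 °C, against 1616 ± 184 CPM at 33 °C (SD, n = 5 each), a log2 fold change of -0.21 (edgeR, adjusted p = 0.544, SE 0.146). The 95% interval of the fold was 0.695 to 1.08, so a rise of more than 1.08-fold lies outside it. Without 42 °C replicate 2 the log2 fold change was -0.10.

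Hsp90ab1 (ENSMUSG00000023944, chr17:45567775-45573271, minus strand) had 95.9, 71.2, 101.9, 86.8 and 88.9 CPM in replicates 1 to 5 at 42 °C, and 92.9, 107.5, 90.2, 98.9 and 96.0 CPM at 33 °C. Heated replicate 2 was again the lowest, with replicates 4 and 5 also below all controls and replicates 1 and 3 within the control range. The group means were 88.9 ± 11.6 CPM at 42 °C, against 97.1 ± 6.67 CPM at 33 °C, a log2 fold change of -0.13 (edgeR, adjusted p = 0.624, SE 0.113), with a fold interval of 0.772 to 1.09. Leaving out 42 °C replicate 2 gave -0.03.

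Hsp90aa1 supplied 93.6% to 94.9% of the counts of the 2 genes in every library. Both together took 0.128% to 0.185% of all counts at 42 °C and 0.151% to 0.191% at 33 °C. The ratio of Hsp90aa1 to Hsp90ab1 counts, which does not depend on scaling, had a geometric mean of 15.6 at 42 °C (range 14.6 to 18.5) and 16.6 at 33 °C (14.9 to 18.1). The difference of the log2 ratios was -0.09, with p = 0.294 in a two-sided exact permutation test of group labels, and also after adjustment over 2 ratios. The ratio was below the 33 °C mean in every heated library but replicate 1. Leaving out each library in turn gave exact unadjusted p-values of 0.151 to 0.516 for 9 of the 10, and 0.0397 (difference -0.15) without heated replicate 1, the library that went the other way.

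Processed pseudogenes held few counts beside these genes. There are 5 pseudogenes that share at least 90% of their bases with Hsp90aa1 over 150 or more coding bases, the closest being Gm12346 on chromosome 11, which is 99.5% identical over 2200 bases and had 8.60 CPM at 42 °C, against 10.7 CPM at 33 °C. All 5 together held counts equal to 0.776% of those of Hsp90aa1 at 42 °C and 0.831% at 33 °C, and 2 such copies of Hsp90ab1 held 0.218% at 42 °C and 0.232% at 33 °C. How reads that fit several places were counted is not given in the sources used here, so the split between the gene and its copies is uncertain.

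**Figure D2:**
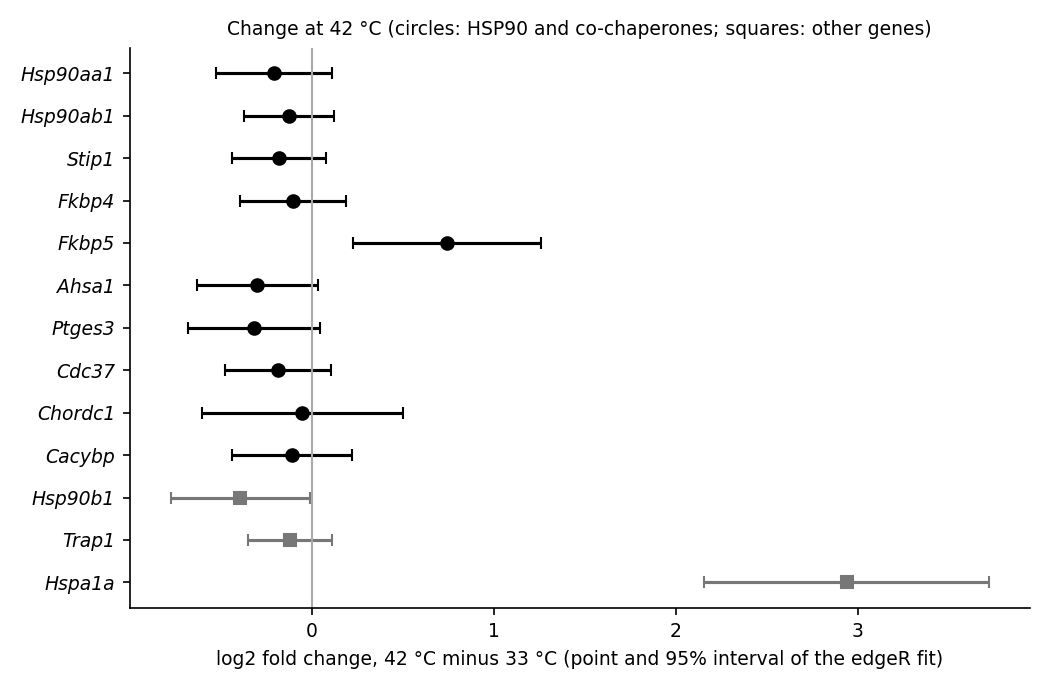
Log2 fold change, 42 °C minus 33 °C, with its 95% interval from the edgeR fit, for the 10 genes (circles) and for Hsp90b1, Trap1 and Hspa1a (squares). Of the 10 intervals 9 include 0, and that of Fkbp5 runs from 0.23 to 1.26.

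Stip1, Fkbp4 and Fkbp5 are co-chaperones with TPR domains that bind the peptide end shown above. Stip1 (also known as HOP, ENSMUSG00000024966, chr19:7020702-7039967, minus strand) bridges HSP70 and HSP90 and hands over clients. It had 140.1, 106.0, 143.1, 135.7 and 136.2 CPM at 42 °C in replicates 1 to 5, and 148.2, 153.6, 124.2, 150.7 and 171.6 CPM at 33 °C. Replicate 2 lay under all controls, and the other 4 heated libraries lay close together at 139 ± 3.51 CPM (SD, n = 4). All 5 heated libraries were below the 33 °C mean of 149.6 ± 17.0 CPM (SD, n = 5), and 4 of them were inside the control range. The log2 fold change was -0.18 (edgeR, adjusted p = 0.525, SE 0.119) and, without 42 °C replicate 2, -0.08. A stretch of 171 coding bases of Stip1 also occurs, at 99.4% identity, in an annotated transcript of Cfap20, so reads from it could be shared. Cfap20 as a whole gene averaged 75.9 CPM at 42 °C, against 85.4 CPM at 33 °C.

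Fkbp4 encodes FKBP52 (ENSMUSG00000030357, chr6:128429735-128438677, minus strand), an immunophilin that favours hormone binding and nuclear transport of steroid receptors. It had 491.0, 324.5, 487.6, 447.4 and 416.7 CPM in replicates 1 to 5 at 42 °C, and 422.0, 517.1, 409.6, 473.7 and 506.0 CPM at 33 °C. Heated replicate 2 lay below all controls, and the other 4 heated libraries lay within the control range. Means of 433 ± 68.2 CPM at 42 °C, against 466 ± 48.5 CPM at 33 °C, gave a log2 fold change of -0.10 (edgeR, adjusted p = 0.723, SE 0.134), and leaving out 42 °C replicate 2 turned it to 0.01.

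Fkbp5 encodes FKBP51 (ENSMUSG00000024222, chr17:28399094-28517527, minus strand), a paralog of FKBP52 that lowers the hormone affinity of steroid receptors and is itself a classic glucocorticoid-induced gene. It was the one member with a log2 fold change over 0. Its levels were 8.33, 13.27, 8.06, 14.98 and 11.01 CPM in replicates 1 to 5 at 42 °C, and 5.75, 4.67, 9.01, 5.13 and 8.64 CPM at 33 °C. Replicates 2, 4 and 5 at 42 °C were above every control, and replicates 1 and 3 were above the control mean but below the controls of replicates 3 and 5. The means were 11.1 ± 3.03 CPM at 42 °C, against 6.64 ± 2.03 CPM at 33 °C, a fold of 1.68 with an interval of 1.17 to 2.40. The log2 fold change of 0.75 (SE 0.238) did not pass after adjustment (edgeR, adjusted p = 0.369), while at an unadjusted p under 0.05, where it stood, 8.56% of all features were higher. Over 21 alternatives the log2 fold change stayed between 0.59 and 0.90 and the adjusted p between 0.0884 and 0.799. Without 42 °C replicate 2 it was 0.71 (adjusted p = 0.473).

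A change in the balance of the immunophilin pair was read from the ratio of Fkbp5 to Fkbp4 counts, which is also free of scaling. The counts were not divided by exonic length (9.468 kb for Fkbp5, 2.795 kb for Fkbp4). The ratio therefore compares the groups, and not the levels of the 2 genes. Fkbp5 counts equalled 2.52% of Fkbp4 counts at 42 °C (geometric mean, range 1.65% to 4.09%) and 1.38% at 33 °C (range 0.903% to 2.20%). The log2 difference of 0.87 had p = 0.0556 in an exact two-sided permutation test, whose smallest possible p is 0.00794, and p = 0.111 after adjustment over 2 ratios. All 5 heated libraries were above the 33 °C mean and 3 were above the highest control. Without 42 °C replicate 2 the difference was 0.69 (exact p = 0.103), and it passed an unadjusted p of 0.05 in 3 of the 10 fits that leave out 1 library.

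Spermatocyte markers also differed among the heated libraries. The 2 heated libraries with the highest Fkbp5, replicates 4 and 2, had the lowest sums of the 16 spermatocyte markers. These were 1081 and 1080.1 CPM, against 1371 to 1502 CPM in the other heated libraries. The 2 libraries differed on other lists. Replicate 2 also had the lowest heated sums of round spermatid markers (2042 CPM) and elongating spermatid markers (3273 CPM). Replicate 4 had the highest round spermatid sum of all libraries (2891 CPM) and an elongating spermatid sum of 5105 CPM. Among the controls, replicate 3 had the most Fkbp5 (9.01 CPM) and a sum of 1550 CPM, within the control range of 1355 to 1741 CPM. Control replicate 5, next in Fkbp5 (8.64 CPM), had the lowest control sum. Over that list, 12 genes had a log2 fold change under 0 and 4 over 0, none passed the threshold, and none was at 0 counts. Their part in the Fkbp5 values was not tested. Of 11 tested glucocorticoid-induced genes other than Fkbp5, 6 were under 0 and 5 over 0, with a median of -0.03, and none had an unadjusted p under 0.05. Within that list Ddit4 averaged 0.7095 ± 0.111 CPM at 42 °C, against 0.959 ± 0.286 CPM at 33 °C, and Dusp1, a phosphatase of MAP kinases, 9.18 ± 1.76 CPM at 42 °C, against 7.64 ± 1.29 CPM at 33 °C.

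Ahsa1 and Ptges3 act on the ATPase cycle in opposite directions. Ahsa1 encodes AHA1 (ENSMUSG00000021037, chr12:87266479-87273998, plus strand), which speeds ATP hydrolysis by HSP90. It had 37.8, 23.3, 39.0, 26.3 and 32.0 CPM in replicates 1 to 5 at 42 °C, and 37.7, 43.0, 36.5, 43.5 and 34.2 CPM at 33 °C. Heated replicates 2, 4 and 5 were below all controls, and replicates 1 and 3 lay within the control range. The log2 fold change was -0.30 (edgeR, adjusted p = 0.467, SE 0.154, fold interval 0.645 to 1.02), with -0.18 when 42 °C replicate 2 was left out. An annotated microRNA gene on the same strand inside Ahsa1, Gm47293, had 3.03 CPM at 42 °C, against 3.90 CPM at 33 °C.

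Ptges3 (ENSMUSG00000071072, chr10:128058954-128077272, plus strand) encodes the co-chaperone p23, which binds the closed dimer and slows ATP hydrolysis. It had 482.4, 259.4, 439.5, 320.5 and 361.7 CPM in replicates 1 to 5 at 42 °C, and 442.6, 522.3, 380.5, 506.0 and 468.7 CPM at 33 °C. The same 3 heated libraries as for Ahsa1 were below all controls, and the same 2 were not. With means of 373 ± 89.7 CPM at 42 °C, against 464 ± 56.1 CPM at 33 °C, its log2 fold change of -0.32 was the lowest of the 10 (edgeR, adjusted p = 0.472, SE 0.167, fold interval 0.625 to 1.03). Without 42 °C replicate 2 it was -0.19. A processed pseudogene on chromosome 6, Ptges3-ps, matches 480 coding bases without a difference and had 28.6 ± 6.19 CPM at 42 °C, against 35.8 ± 4.21 CPM at 33 °C. Together with Gm11893 its counts equalled 8.03% of those of Ptges3 at 42 °C and 7.96% at 33 °C, and the split between them is uncertain.

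Cdc37 (ENSMUSG00000019471, chr9:21133222-21149982, minus strand) encodes the co-chaperone that recruits protein kinases to HSP90. It had 59.7, 41.5, 66.3, 49.5 and 52.9 CPM in replicates 1 to 5 at 42 °C, and 57.8, 70.3, 54.6, 61.9 and 62.8 CPM at 33 °C. Heated replicates 2, 4 and 5 were below all controls here too. The log2 fold change was -0.19 (edgeR, adjusted p = 0.549, SE 0.134), and -0.08 without 42 °C replicate 2.

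Chordc1 and Cacybp carry the CS fold that p23 also has. Chordc1, also called morgana (ENSMUSG00000001774, chr9:18292125-18317442, plus strand), binds HSP90 through its CHORD and CS domains. It had 5.92, 9.82, 5.00, 4.13 and 5.00 CPM in replicates 1 to 5 at 42 °C, and 5.45, 5.41, 8.35, 7.53 and 4.18 CPM at 33 °C. Heated replicate 2 was the highest library and heated replicate 4 the lowest, so the heated group spanned all controls. The means of 5.98 ± 2.24 CPM at 42 °C, against 6.19 ± 1.71 CPM at 33 °C, gave a log2 fold change of -0.05 (edgeR, adjusted p = 0.936, SE 0.254, fold interval 0.658 to 1.41), and without 42 °C replicate 2 it was -0.27. Scaling by library totals turned it to 0.0024. The 3 libraries with the most Chordc1, replicate 2 at 42 °C and replicates 3 and 4 at 33 °C, were those with the largest TE shares, of 16.2%, 9.07% and 8.02%. With TE counts relative to gene counts (log scale) as a covariate, an alternative chosen after seeing the data, the log2 fold change of Chordc1 was -0.24 (edgeR, adjusted p = 0.437, against 0.437 to 0.998 over all 21 alternatives), and the median of the 10 genes was -0.11.

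Cacybp (ENSMUSG00000014226, chr1:160202367-160212875, minus strand) encodes a protein that binds calcyclin and the ubiquitin ligase subunit SIAH1. It had 53.7, 42.3, 52.8, 49.4 and 44.1 CPM in replicates 1 to 5 at 42 °C, and 53.0, 65.1, 35.8, 49.3 and 58.2 CPM at 33 °C. All heated libraries lay inside the control range, which was the wider of the ranges. The log2 fold change was -0.11 (edgeR, adjusted p = 0.742, SE 0.152), and -0.04 without 42 °C replicate 2. An annotated transcript of Med15 holds 224 bases that are 98.2% identical to the coding sequence of Cacybp, so reads from it could be shared. Med15 as a whole gene averaged 109.5 CPM at 42 °C, against 139.5 CPM at 33 °C, more than Cacybp. The 4 pseudogenes of Cacybp had at most 21 counts each per group.

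**Figure D3:**
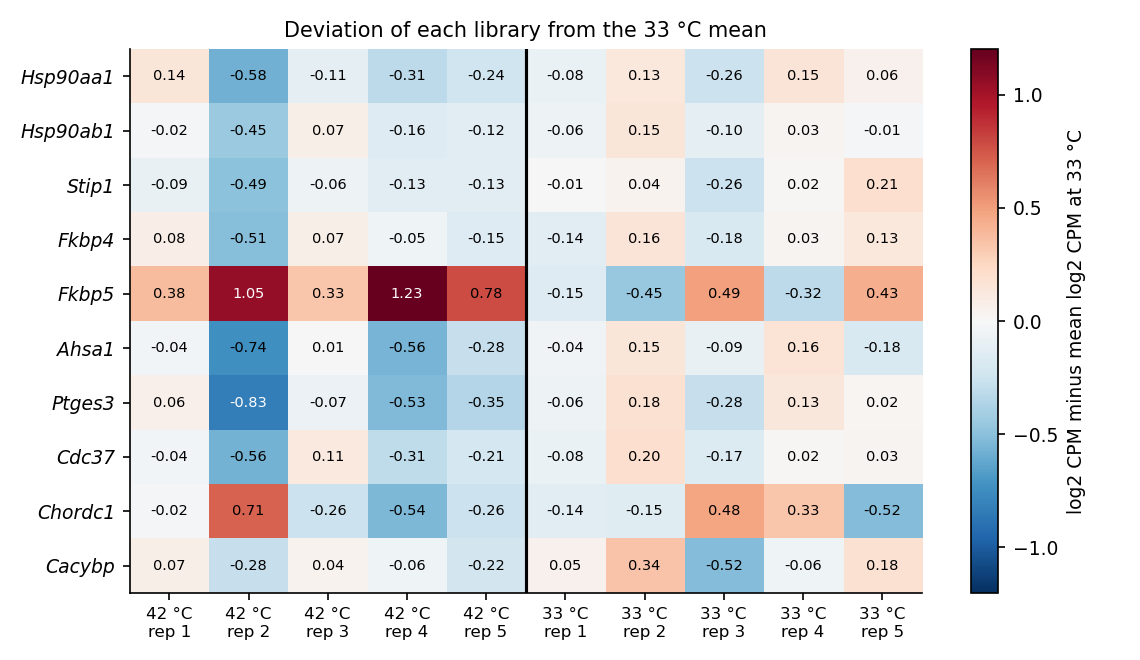
Log2 CPM of each gene in each library minus the mean log2 CPM of the 33 °C libraries, with the 42 °C libraries on the left (colour and number give the deviation). Heated replicate 2 is at -0.28 to -0.83 in 8 rows and at 1.05 and 0.71 in the Fkbp5 and Chordc1 rows, and heated replicates 1 and 3 stay within 0.14 of 0 in 9 and 8 rows.

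The plot of deviations by library shows which libraries were high or low. Heated replicate 2 had the lowest value of all 10 libraries for 7 members and stood at 55.9% of the 33 °C mean for Ptges3, 66.6% for Hsp90aa1 and 80.8% for Cacybp. In the same library Fkbp5 stood at 199.9% and Chordc1 at 158.7% of the 33 °C mean. The coefficient of variation was larger at 42 °C than at 33 °C for 7 of the 10 genes, and for 5 without that library. Summed, the 10 genes took 0.219% to 0.311% of all counts at 42 °C and 0.263% to 0.323% at 33 °C.

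Levels of different genes were compared per kilobase of annotated exon. That length covers the exons of all annotated transcripts of a gene, and not 1 message, so the order depends on the annotation. It was 8.19 kb for Cdc37 and 2.39 kb for Cacybp. In CPM, Cdc37 (54.0 at 42 °C, 61.5 at 33 °C) was above Cacybp (48.4 at 42 °C, 52.3 at 33 °C), and per kb it was below. Averaged over all 10 libraries, Hsp90aa1 led with 383.5 CPM per kb, rank 55 of 21817 protein-coding genes. Ptges3 followed with 188.7 and Fkbp4 with 160.8 CPM per kb, and these neighbours overlapped, with Ptges3 the higher in 9 of 10 libraries. Stip1 stood at 66.9 and Hsp90ab1 at 31.0 CPM per kb, and the order held in every library, as it did for Hsp90aa1 over Ptges3 and for Fkbp4 over Stip1. Cacybp at 21.1 CPM per kb was under Hsp90ab1 in 10 of 10 libraries, although their ranges over all libraries overlapped. Ahsa1 at 8.07 and Cdc37 at 7.05 CPM per kb were not separated by their ranges, nor were Fkbp5 at 0.938 and Chordc1 at 0.811 CPM per kb, which kept their order in 6 libraries.

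**Figure D4:**
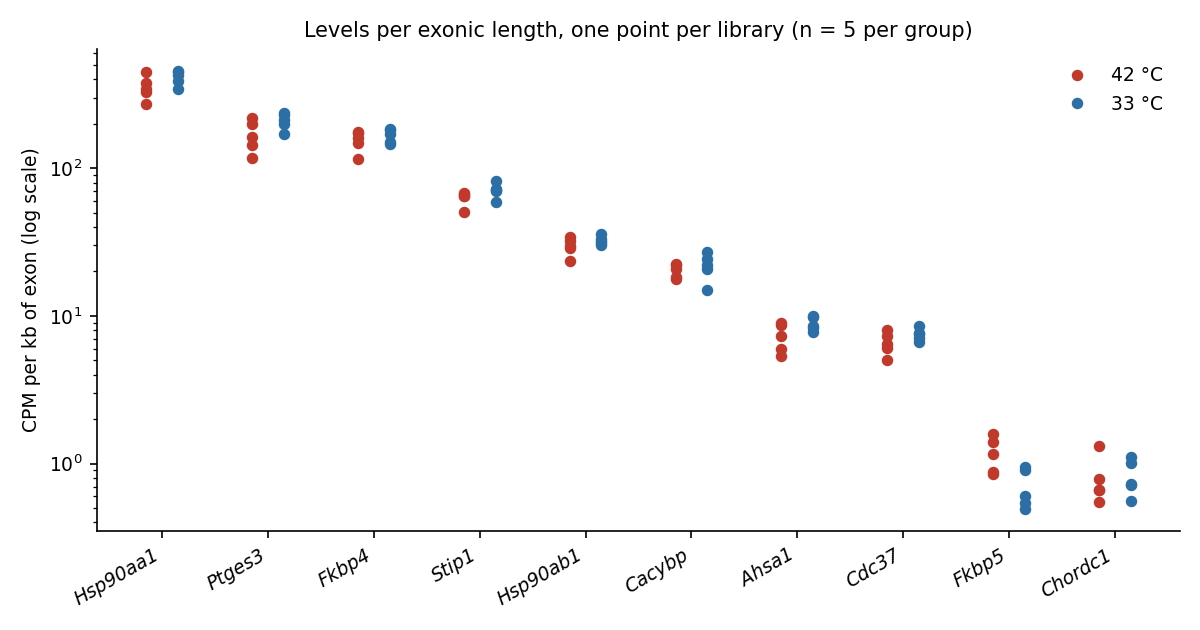
CPM per kilobase of exon (log scale) of the 10 genes, ordered by their mean over all libraries, with 1 point per library at 42 °C (red, left) and at 33 °C (blue, right). Hsp90aa1 lies between 274 and 454 CPM per kb, and Fkbp5 and Chordc1 lie between 0.493 and 1.58 CPM per kb.

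Heat shock factors bind inverted repeats of a short unit, and the promoters of the members were searched for them. RefSeq promoters of GRCm38.p6, from 250 bases before to 50 bases after the start it gives, were matched by symbol for 8 of the 10 genes, and Hsp90aa1 and Hsp90ab1 had no entry. The RefSeq start can differ from the gene span given above. The Fkbp5 window, chr17:28486100-28486399, lies inside the Fkbp5 gene span. The Chordc1 gene span begins at 18292125, inside the window and before the RefSeq start. The letters searched were GAANNTTC and TTCNNGAA for a pair of units, each of which reads the same on both strands, and GAANNTTCNNGAA and TTCNNGAANNTTC for 3 units in a row, which contain overlapping pairs. Pairs were found in 3 of the 8 promoters, those of Chordc1, Fkbp4 and Cdc37, against 15.1% of 32851 promoters of this length. Runs of 3 units were found in that of Chordc1, against 0.603% of promoters. The 3 promoters with a match are shown with the matched letters in capitals.
Chordc1, chr9:18292017-18292316, plus strand: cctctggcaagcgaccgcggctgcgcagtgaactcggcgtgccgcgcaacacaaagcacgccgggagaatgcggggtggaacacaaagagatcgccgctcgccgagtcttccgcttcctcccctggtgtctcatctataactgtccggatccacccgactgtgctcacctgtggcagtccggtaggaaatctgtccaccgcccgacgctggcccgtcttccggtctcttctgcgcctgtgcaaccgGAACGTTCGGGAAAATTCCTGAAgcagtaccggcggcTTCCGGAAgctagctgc
Fkbp4, chr6:128438607-128438906, minus strand: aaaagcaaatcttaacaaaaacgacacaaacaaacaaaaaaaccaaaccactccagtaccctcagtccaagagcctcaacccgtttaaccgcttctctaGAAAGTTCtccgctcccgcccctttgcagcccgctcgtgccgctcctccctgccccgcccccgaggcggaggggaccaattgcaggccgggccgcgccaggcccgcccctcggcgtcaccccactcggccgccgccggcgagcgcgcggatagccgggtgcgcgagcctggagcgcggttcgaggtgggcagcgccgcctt
Cdc37, chr9:21149885-21150184, minus strand: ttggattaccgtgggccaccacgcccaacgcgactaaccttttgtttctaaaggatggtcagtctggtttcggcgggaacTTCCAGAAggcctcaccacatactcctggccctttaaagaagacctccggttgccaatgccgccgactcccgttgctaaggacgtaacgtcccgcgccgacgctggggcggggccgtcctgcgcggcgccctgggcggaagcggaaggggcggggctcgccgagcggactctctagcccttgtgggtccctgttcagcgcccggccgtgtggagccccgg
In Chordc1 the first of the 5 pairs begins 4 bases before the RefSeq start and the last 33 bases after it, all within the gene span. The pairs other than the last form 1 run of 23 bases in which each overlaps its neighbours. The single pairs of Fkbp4 and Cdc37 begin 151 and 170 bases before the RefSeq start. The log2 fold changes of these 3 genes were -0.05, -0.10 and -0.19. Among heat shock and HSP90 genes outside the 10, the promoters of Hspa1a and Hspa1b, the genes of inducible HSP70, held 1 pair each, and that of Hsph1, which did not pass the edgeR threshold, held 3 pairs and 1 run of 3 units. Those of Dnajb1, Hsp90b1, Trap1 and Hspa4l held none. Only the exact letters within this window were searched, so a promoter without a match is not shown to lack a binding site.

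Other genes of the HSP90 system were read from lists of known partners, clients and regulators, each described by counts and medians. Apart from heat shock genes, no gene of these lists was called by edgeR, DESeq2 or limma voom. At an unadjusted p under 0.05, 2.94% of all features were lower, beside the 8.56% that were higher. Among 12 heat shock genes that serve as a scale, 1 passed the threshold in edgeR, 2 in DESeq2 and 1 in limma voom. Of the 12, 5 were under 0 and 7 over 0, with a median of 0.05. At an unadjusted p under 0.05, 2 were higher, Hspa1a and Hspa1b, and 0 lower. Hspa1a averaged 2.14 ± 1.04 CPM at 42 °C, against 0.278 ± 0.0987 CPM at 33 °C, a log2 fold change of 2.94 (edgeR, adjusted p = 0.0106, SE 0.36). Its near-identical neighbour Hspa1b, with which reads may be shared, averaged 6.45 ± 3.16 CPM at 42 °C, against 2.40 ± 1.06 CPM at 33 °C (log2 fold change 1.43, adjusted p = 0.262, and 0.0091 by DESeq2). Hsf1, the main heat-responsive factor, averaged 46.5 ± 4.28 CPM at 42 °C, against 56.5 ± 5.36 CPM at 33 °C (log2 fold change -0.28, adjusted p = 0.393). The 4 tested genes of the heat shock factor list, which includes the HSF-binding protein gene Hsbp1, were all under 0 with a median of -0.22, and 2 of them, Hsf1 and Hsf5, had an unadjusted p under 0.05.

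The HSP90 genes of other compartments also stayed short of the threshold, and Hsp90b1 had an unadjusted p under 0.05. Hsp90b1, which encodes GRP94 of the endoplasmic reticulum, averaged 499.7 ± 121 CPM at 42 °C, against 656 ± 104 CPM at 33 °C (log2 fold change -0.39, SE 0.176, adjusted p = 0.430). Trap1, the mitochondrial HSP90, averaged 74.9 ± 8.47 CPM at 42 °C, against 81.3 ± 5.01 CPM at 33 °C (log2 fold change -0.12, adjusted p = 0.624, and -0.03 without 42 °C replicate 2).

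Of 18 other co-chaperones, most of them with TPR domains, none passed, 2 were lower at an unadjusted p under 0.05, 15 were under 0 and the median was -0.15. The most abundant were Ttc4 with 213.5 ± 42.4 CPM at 42 °C, against 248 ± 28.0 CPM at 33 °C, and St13, which binds HSP70, with 206 ± 42.1 CPM at 42 °C, against 244 ± 23.6 CPM at 33 °C. Those of smallest p were Unc45a, a myosin chaperone (log2 fold change -0.33, SE 0.133, adjusted p = 0.405), and Spag1, a dynein arm assembly factor (log2 fold change -0.38, SE 0.169, adjusted p = 0.430, and -0.22 without 42 °C replicate 2). Of 17 tested co-chaperones with CS domains or other folds none passed, 1 was higher at an unadjusted p under 0.05, 13 were under 0 and the median was -0.10. Pih1d3, which also serves dynein assembly, had 7.33 ± 1.76 CPM at 42 °C, against 5.09 ± 0.576 CPM at 33 °C (log2 fold change 0.52, SE 0.177, adjusted p = 0.370), and Pih1d2 had -0.23 (adjusted p = 0.462, and -0.13 without 42 °C replicate 2). Fnip1, a folliculin partner that slows the ATPase, was among the most abundant, with 154 ± 10.5 CPM at 42 °C, against 177 ± 16.2 CPM at 33 °C.

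The R2TP and TTT complexes work with HSP90 to assemble large kinases and polymerases. Of 9 genes of these complexes and their prefoldin-like partners none passed, 3 had an unadjusted p under 0.05 (2 of them lower), 7 were under 0, and the median was -0.23. Pdrg1 had 3.68 ± 1.52 CPM at 42 °C, against 2.26 ± 0.508 CPM at 33 °C (log2 fold change 0.70, SE 0.271, adjusted p = 0.394), and Tti2 had 11.8 ± 2.75 CPM at 42 °C, against 15.7 ± 2.50 CPM at 33 °C (log2 fold change -0.42, SE 0.180, adjusted p = 0.424). The most abundant was Ruvbl2, an AAA ATPase, with 206.2 ± 33.4 CPM at 42 °C, against 227 ± 19.8 CPM at 33 °C. Of 23 tested client receptors and kinases none passed, 1 was higher at an unadjusted p under 0.05, 13 were under 0 and 10 over 0, and the median was -0.06. Egfr, at 3.47 ± 0.917 CPM at 42 °C, against 1.91 ± 1.06 CPM at 33 °C, had a log2 fold change of 0.86 (SE 0.355, adjusted p = 0.414), and Ripk1 had -0.29 (adjusted p = 0.454). The most abundant clients were the testis-specific serine kinases Tssk1, with 235 ± 49.6 CPM at 42 °C, against 198 ± 51.7 CPM at 33 °C, and Tssk2, with 227 ± 50.1 CPM at 42 °C, against 177 ± 53.8 CPM at 33 °C.

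**Figure D5:**
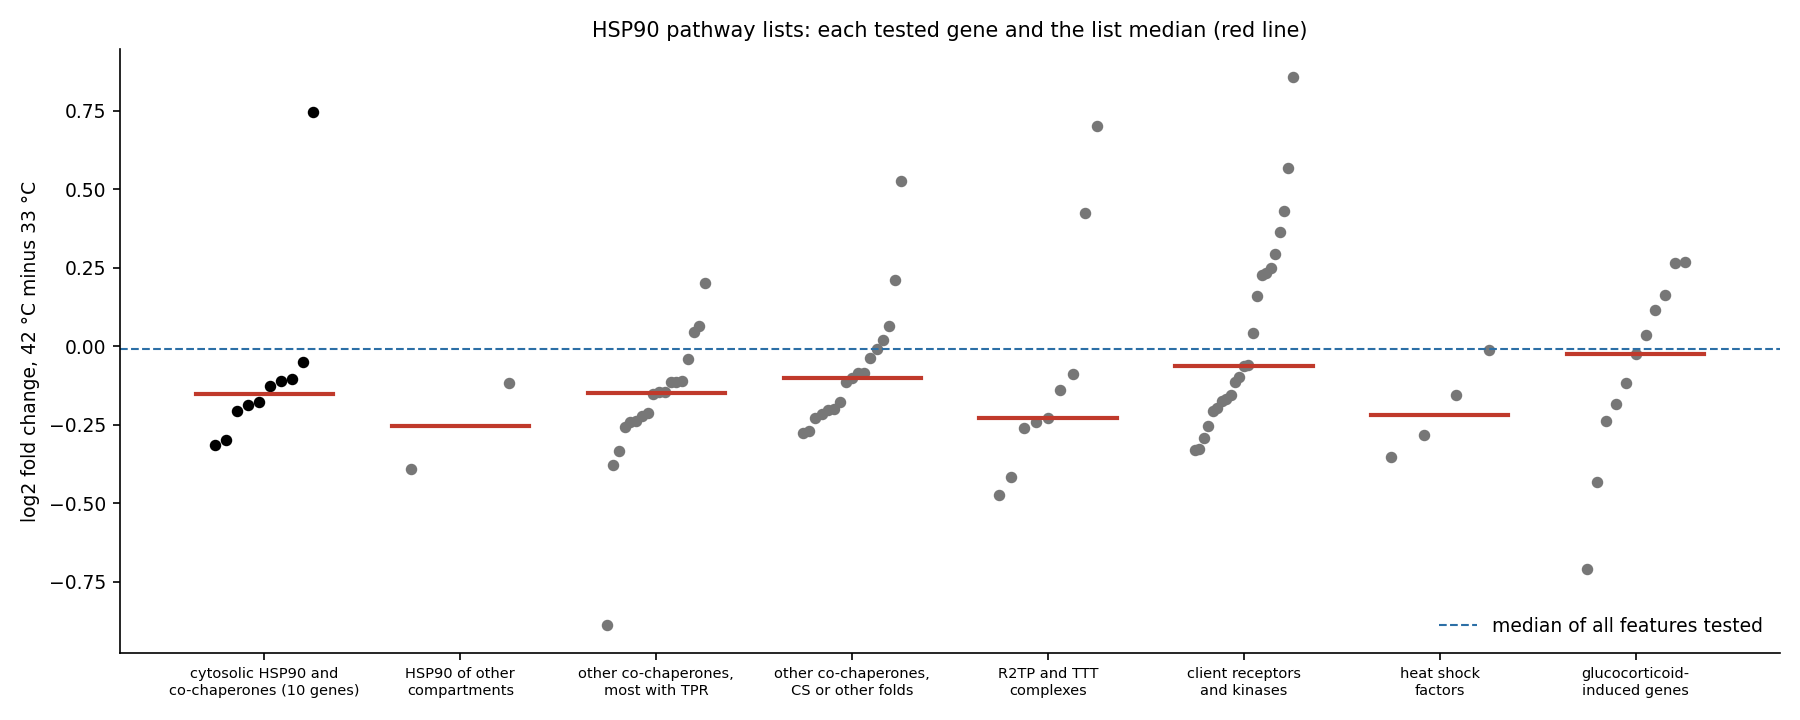
Log2 fold change, 42 °C minus 33 °C, of each tested gene of the 10 genes (black) and of 7 lists of HSP90-related genes (grey), with the median of each list in red and the median of all features as a dashed line. The medians of the lists lie between -0.26 and -0.03, and no gene drawn passed the threshold.

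The genes whose pattern over the 10 libraries was most like that of each HSP90 gene were found by the root mean square distance of centred log2 CPM among 8494 genes with a mean of at least 10 CPM. For Hsp90aa1 they were Slco6d1 at 0.0333, Ldhal6b at 0.0374, Rpn1 at 0.0382, Ash2l at 0.0394 and Ubxn1 at 0.0409, where the median over all genes was 0.222. The closest member was Ptges3 at 0.0976, in place 563. For Hsp90ab1 they were Fis1 at 0.0221, Abhd12 at 0.0243, Exoc7 at 0.0244, Nop53 at 0.0328 and Abhd17a at 0.0336, with a median of 0.191, and the closest member was Cdc37 at 0.0653, in place 305. The libraries share their depth and TE share in all these genes, so the distances are a description.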

How the data were processed

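RNA-seq libraries of isolated round spermatids from 10 mice, 5 per group, were compared. The authors deposited 1 table of raw counts per gene and per TE subfamily, with gene positions, start, end and length columns beside them, and no normalization. All deposited values were whole numbers whose sums differ between libraries. Tools named in the submitters' processing notes are DRAGEN, Trim Galore and cutadapt, with GRCm38 and mm10 as builds. Not given in the sources used here are the counting tool, its strand setting and its rule for reads that align to several places. Libraries were stranded, per the labels' protocols. Gene positions matched GENCODE M21 for 99.4% of 55141 shared identifiers.

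The test on these counts was edgeR's quasi-likelihood test (edgeR 4.0.16, R 4.3.3) on group alone, with TMM factors over genes and TE together and filterByExpr with a minimum count of 10 and a minimum total of 15. Benjamini-Hochberg adjustment ran over 26025 features, with a threshold of 0.05. Levels are CPM from the same scaling, divided by the GENCODE exonic length where genes are compared. The p-values set the difference of the groups against the spread between libraries of a group. With 1 library per mouse, that spread holds differences between mice, cell isolations and libraries together. Alternatives were DESeq2 1.42.0, voom with sample quality weights in limma 3.58.1, other scalings and filters, a replicate block and leaving out each library. Adding pseudogene counts to their parent gene, a TE covariate and voom without 42 °C replicate 2 were chosen after seeing the data. The fit was tested on simulated data. Near copies were searched for with BLAST 2.17.0 on the coding sequences, the ends and promoters were read with Python 3.11.15 from GENCODE and RefSeq sequences, and pairs of coding sequences were aligned with Biopython 1.88. Within each group, all pairs of libraries differed by more than sampling noise.

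The genes and lists were chosen with earlier results of these data known. All 10 genes are given whatever their result, with Hsp90b1, Trap1, Hsf1 and Hspa1a, and from each other list up to 3 genes of highest mean CPM, by level alone, and the 2 of smallest p. For Hsp90aa1 and Hsp90ab1 the 5 genes of nearest pattern are named. Some genes that the rule names are counted and not described singly.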

Additional observations from a re-analysis of the deposited data

Results flagged for a closer look

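Stip1 was at 106.0 CPM in 42 °C replicate 2, far below the other 4 heated libraries, of which the nearest had 135.7 CPM. The gap was 0.8 of the whole range of the 5 heated libraries. The same library had the lowest total count and the largest TE share, and their part in this value was not tested. With the TE covariate, chosen after seeing the data, the log2 fold change of Stip1 was -0.11 (edgeR, adjusted p = 0.394). It was -0.18 in the main fit (edgeR, adjusted p = 0.525) and -0.08 without 42 °C replicate 2.

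The ratio of Hsp90aa1 to Hsp90ab1 counts was 18.49 in 42 °C replicate 1, against 15.3 in the next heated library, a gap of 0.824 of the range. With 24 sets of 5 libraries examined, chance alone marks about 1 in 20 sets.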

How the results depend on the processing

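The number of the 10 genes past the threshold was 0 under all 21 alternatives. Over all features, edgeR as described called 23 higher and 1 lower. The counts were 15 higher with library totals, 73 and 3 with no filter, 2 and 0 with a mean of at least 1 CPM, 40 and 3 with the TE covariate, 257 and 31 with DESeq2, 124 and 29 with limma voom, and 83 and 28 with limma voom without 42 °C replicate 2. Leaving out each library in turn gave 10 to 21 higher and 0 to 2 lower. The lowest count higher came without 33 °C replicate 4, and 42 °C replicates 1, 2, 4 and 5 and 33 °C replicate 1 also moved it by over 1.5 times, to 15, 14, 15, 14 and 12. The direction turned for Hsp90ab1 (0.0215), Cdc37 (0.0165), Trap1 (0.0227) and Fkbp4 (0.0903) with limma voom without 42 °C replicate 2, for Fkbp4 also with limma voom (0.0322) and in edgeR without that library (0.0133, with -0.153 at the other end, without 42 °C replicate 1), and for Cacybp without 33 °C replicate 2 (0.025, with -0.221 to 0.025 over the fits without 1 library). Chordc1 turned with library totals (0.0024), with no filter (0.0094) and without 33 °C replicates 3 (0.0789) and 4 (0.0271) or 42 °C replicates 3 (0.0060), 4 (0.0554) and 5 (0.0084), and lay at -0.273 without 42 °C replicate 2. The causes were not tested. All other log2 fold changes of the genes named by smallest p kept their direction, and Hspa1b passed the threshold with DESeq2. The log2 difference of the Hsp90aa1 to Hsp90ab1 ratio ranged from -0.146 to -0.0544 over the fits without 1 library, and that of the Fkbp5 to Fkbp4 ratio from 0.694 to 1.04, and leaving out heated replicate 1 or 3 gave it an exact p of 0.0397 and control replicate 3 one of 0.0476. Same-numbered mice are not shown to be pairs, since their deviations correlated at -0.600 to -0.106 and none correlated best with its own number. With a replicate block, 4 features were higher and 0 lower, and none of the 10 genes was called. The ratio differences with that block were -0.09 (exact sign-flip p = 0.312) and 0.87 (exact sign-flip p = 0.188). With 5 numbered pairs the sign-flip test cannot give a p under 0.05, so these p-values do not decide either ratio. Chordc1 and Fkbp5, with the lowest counts, had the largest SE of the 10 genes.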
